A study of Mus musculus with 16 samples.

Results

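Expression of 9 genes that mark microglia, the resident macrophages of the brain, was followed across a set of mouse cortex libraries: C1qa, C1qb, C1qc, Cx3cr1, P2ry12, Csf1r, Tmem119, Aif1 and Trem2. The genes were taken by name from a list that uses no threshold on a measured value but was chosen with earlier results of these data known. All 9 were found among the 20436 genes of the deposited tables. All 9 passed the filter on low counts in both assays, among 13287 genes tested in RNA-seq and 13774 in ribosome footprints. The study measured cytoplasmic RNA by RNA-seq and ribosome-protected fragments (footprints, which count ribosomes on coding sequence) by ribosome profiling, from the same cortex lysates. The 4 genotypes were wild type (WT), a knockout of Fmr1, a knockout of Cpeb1, and the Fmr1/Cpeb1 double knockout. Fmr1 encodes FMRP, the RNA-binding protein lost in fragile X syndrome, and Cpeb1 encodes an RNA-binding protein that controls polyadenylation and translation. There were 2 libraries per genotype and assay, 16 in all.

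All mice carried the background given in the labels as FVB.129P2-/Pde6b+ Tyr c-ch //AntJ and were taken at postnatal day 28 to 35. The labels name no Cre driver, transgene or pooling. The 2 libraries of a genotype carry the numbers 1 and 2, and nothing in the labels says that the numbers mark separate animals or a shared day, so the p-values measure the spread between these libraries, which may be technical.

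Microglia survey brain tissue with moving processes, clear debris and prune synapses. Neurons signal to them through fractalkine, the ligand of the receptor CX3CR1, and through ADP, which draws their processes by way of the receptor P2RY12. Their survival depends on CSF1R, the receptor for CSF1 and IL-34. C1q, built from the C1QA, C1QB and C1QC chains, starts the classical complement pathway and in the brain comes mainly from microglia. TREM2 is a lipid-sensing receptor that signals through the adaptor TYROBP. AIF1, also called IBA1, is an actin-bundling protein used to stain microglia, and TMEM119 is a surface protein used to tell them from other macrophages.

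The promoters of such genes are commonly bound by PU.1, the myeloid factor encoded by Spi1, whose binding motif is built around the ETS core GGAA. The promoters of 3 members are shown because P2ry12 is the gene on which the test results turn, Cx3cr1 showed the same order of footprint levels, and C1qb belongs to the C1q cluster. Each is the 100 bases before a RefSeq transcript start, read 5′ to 3′ on the gene's strand, with GGAA or its reverse complement TTCC in capitals. The windows, in build GRCm38.p6, are chr3:59262986-59263085 on the minus strand for P2ry12, chr9:120068297-120068396 on the minus strand for Cx3cr1, and chr4:136886201-136886300 on the minus strand for C1qb.
P2ry12: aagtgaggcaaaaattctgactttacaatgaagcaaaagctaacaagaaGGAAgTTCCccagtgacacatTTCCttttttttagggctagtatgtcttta
Cx3cr1: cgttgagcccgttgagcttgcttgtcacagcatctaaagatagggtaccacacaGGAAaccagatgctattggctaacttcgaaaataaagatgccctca
C1qb: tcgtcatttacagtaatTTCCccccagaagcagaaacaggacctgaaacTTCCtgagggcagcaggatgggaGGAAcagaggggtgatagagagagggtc
The core, searched on both strands, stood in all 6 of the members' promoters matched here, and also in 66.8% of 32851 RefSeq promoters of the same length. The longer PU.1 box GAGGAA, which contains the core and was searched on both strands too, stood in 3 of the 6 (C1qb, Aif1 and Trem2) and in 9.82% of all. The box was absent from the promoters of P2ry12, Cx3cr1 and C1qc, and C1qa, Tmem119 and Csf1r had no promoter sequence here. These matches describe the letters only.

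RNA-seq libraries held 5423919 to 10246479 rounded counts and footprint libraries 16239479 to 24973462, so footprints were the deeper measure. The labels were checked on the targeted genes. Fmr1 footprints were 95.7 and 97.2 CPM (counts relative to a library size adjusted by TMM) in WT and 108 and 94.8 for the Cpeb1 knockout, against 8.68 and 5.87 for the Fmr1 knockout and 5.32 and 5.52 for the double knockout. Cpeb1 footprints were 35.4 and 33.4 CPM in WT and 34.4 and 36.7 for the Fmr1 knockout, against 7.30 and 7.43 for the Cpeb1 knockout and 7.73 and 7.69 for the double knockout. In RNA-seq, Fmr1 was 18.4 to 25.9 CPM in the libraries labelled as lacking it and 87.0 to 116 in the others. Cpeb1 RNA was 15.96 to 19.69 CPM in the libraries labelled as lacking it and 27.5 to 43.9 in the others. The groups did not overlap in either assay, but for Cpeb1 RNA the gap was small, so the check of the Cpeb1 labels is weaker in RNA-seq than in footprints.

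The microglia genes were weakly expressed in this whole-cortex material. Compared between genes per length, with the deposited TPM (transcript abundance scaled within a library) over coding sequence, the mean RNA level over the 8 libraries was highest for C1qa, at 11.7 ± 4.42 TPM (SD, n = 8), followed by P2ry12 at 10.6 ± 1.86, Aif1 at 8.58 ± 2.21, C1qc at 8.31 ± 4.11, Csf1r at 7.69 ± 1.72, C1qb at 7.59 ± 2.57, Cx3cr1 at 5.60 ± 1.07, Tmem119 at 3.45 ± 1.21 and Trem2 at 3.05 ± 1.25. Neighbours in this order differed by less than the SD of at least one of the pair, except Cx3cr1 and Tmem119, whose gap was larger than both. The neuronal gene Snap25, for comparison, stood at 2932 ± 256 TPM. Of the genes tested in RNA-seq, 27.4% lay below C1qa and 10.3% lay below Trem2.

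In footprints the order per length was different at the top. Aif1 had the highest mean level, 10.4 ± 2.16 TPM, then came C1qa at 7.15 ± 1.82, P2ry12 at 6.73 ± 2.10, C1qb at 6.26 ± 2.60, Csf1r at 4.93 ± 1.43, C1qc at 4.27 ± 1.85, Cx3cr1 at 4.25 ± 0.902, Tmem119 at 3.11 ± 0.832 and Trem2 at 1.42 ± 0.582. The steps from Aif1 to C1qa, from Cx3cr1 to Tmem119 and from Tmem119 to Trem2 were larger than the SD of both neighbours, and the others were smaller than at least one. In WT, the log2 ratio of footprint TPM to RNA TPM was 0.70 ± 0.71 (SD, n = 2) for Aif1, the highest of the 9, and -0.65 ± 0.067 for C1qc, the lowest. Among 12399 genes with at least 10 counts in each WT library, the median was -0.63 with quartiles of -1.37 and -0.01. The 9 thus ran from near that median upward. Tmem119 and Trem2 missed this count limit, with 8 RNA counts for Tmem119 in WT replicate 2 and 9 and 7 for Trem2. The Aif1 ratio was 1.20 in replicate 1 and 0.20 in replicate 2, and rests on 16 and 15 RNA counts.

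The 3 C1q chain genes lie side by side on chromosome 4, C1qb at 136880126 to 136886200, C1qc at 136889801 to 136892936 and C1qa at 136895916 to 136898844 (GRCm38.p6, the mm10 assembly). Their proteins are assembled in equal numbers into C1q. Footprints per length were lowest on C1qc in 8 of 8 libraries, while C1qa and C1qb exchanged first place (C1qa in 6, C1qb in 2). In RNA C1qa was highest in 6 of 8 libraries and C1qc in 2.

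**Figure D1:**
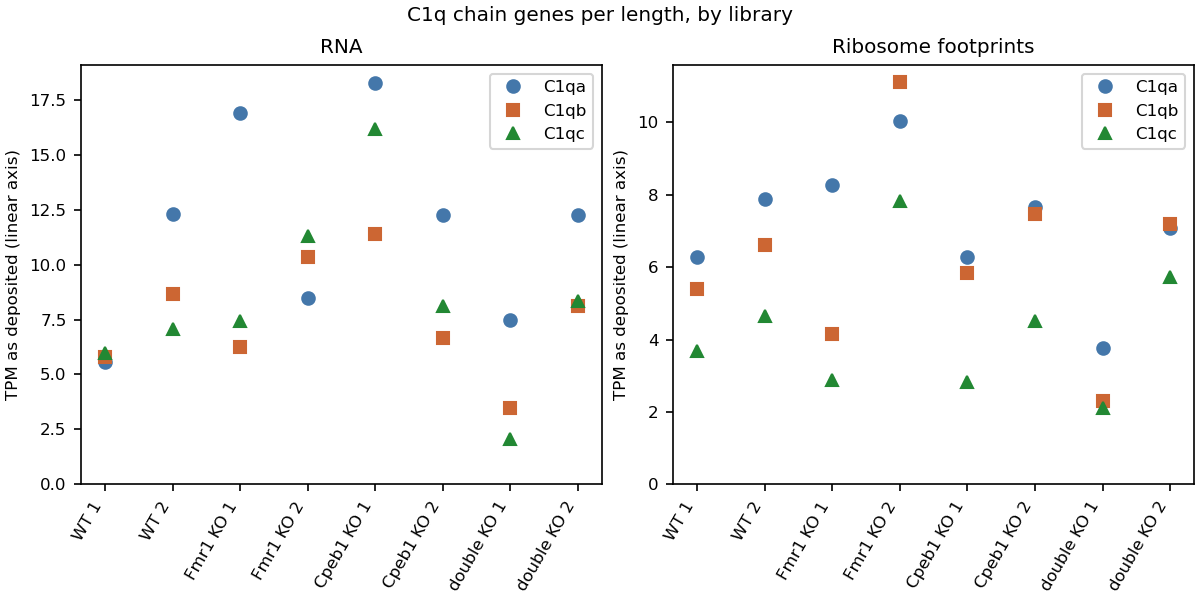
TPM as deposited (vertical axes, linear) of C1qa, C1qb and C1qc in each library (horizontal axes, genotype and replicate number), RNA left and footprints right. Each point is 1 library; in footprints the C1qc triangle is the lowest point in 8 of 8 libraries.

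The C1q genes differed widely between libraries of a genotype. C1qb footprints were 2.76 and 7.23 CPM for the Fmr1 knockout and 1.48 and 4.78 for the double knockout, gaps of 1.36 and 1.63 on the log2 scale where the median gap of all tested genes was 0.155 and 0.141. C1qc RNA in the double knockout rested on 8 counts in replicate 1 and 26 in replicate 2. Over libraries, a member had 5 to 177 counts in RNA-seq and 6 to 464 in footprints, with Trem2 lowest and Csf1r highest in both.

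Summed over the 9 genes, footprints were 37.6 and 48.4 CPM in WT, 40.9 and 57.8 with Fmr1 knocked out, 43.9 and 45.5 with Cpeb1 knocked out and 23.1 and 37.4 for the double knockout. Both double knockout libraries lay below the other 6, one of them by a narrow margin. The summed RNA was 31.8 and 42.9 CPM in WT, 49.1 and 54.3 with Fmr1 knocked out, 66.6 and 41.1 with Cpeb1 knocked out and 36.3 and 53.2 for the double knockout. There the genotypes overlapped. In bulk tissue, fewer microglia and less RNA or fewer ribosomes per microglial cell cannot be told apart.

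**Figure D2:**
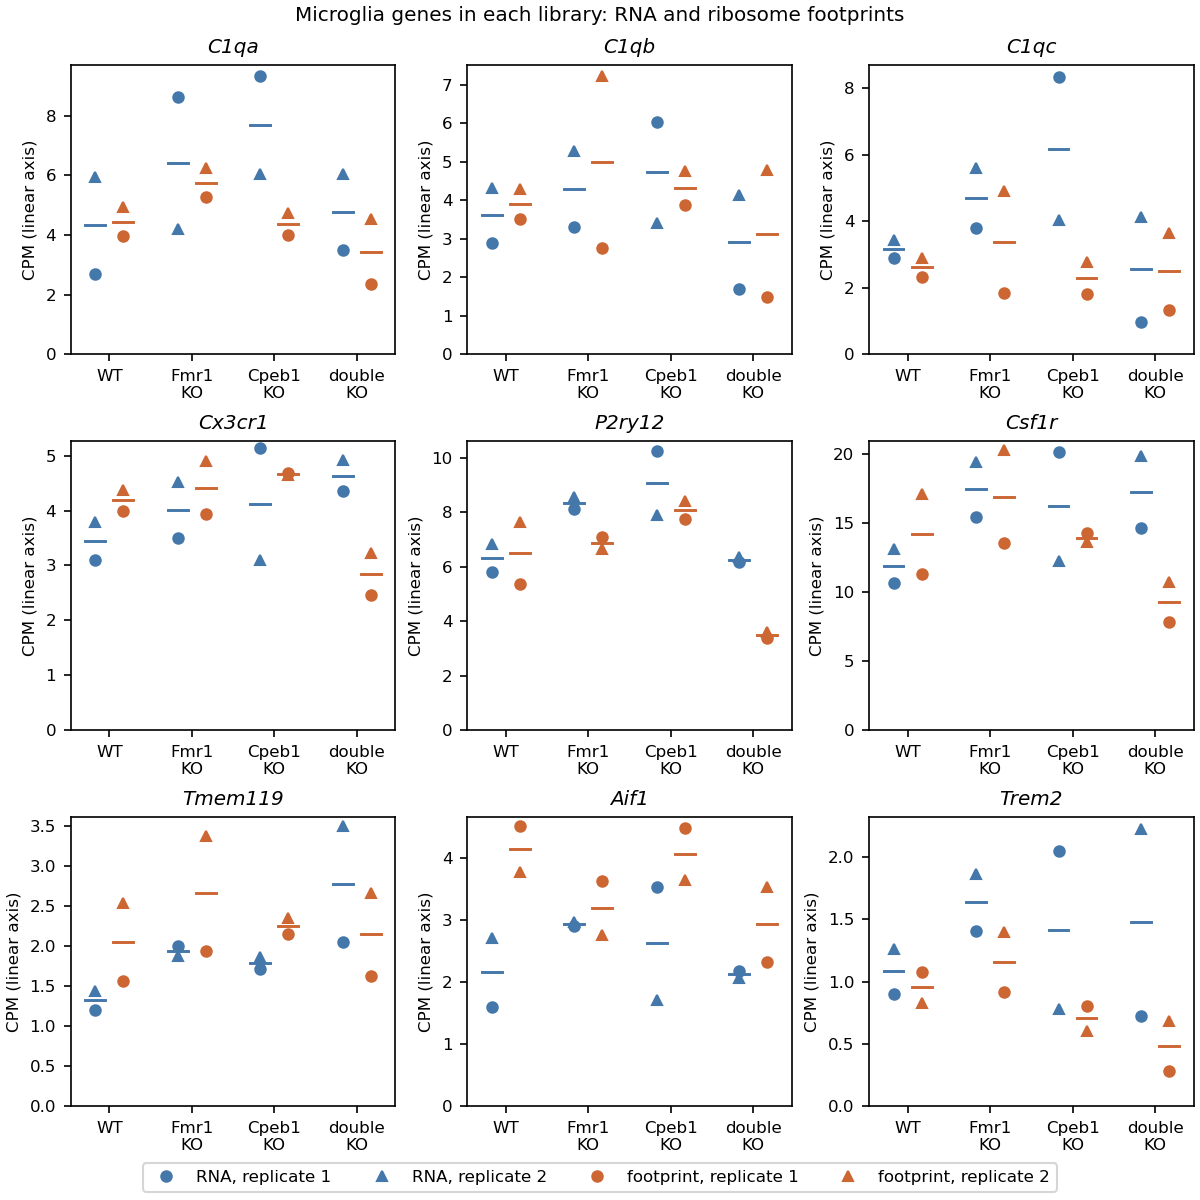
CPM (vertical axes, linear, each panel on its own scale) of the 9 microglia genes in the 4 genotypes (horizontal axes). Circles are replicate 1 and triangles replicate 2, blue for RNA and orange for footprints, and the bars are means of 2; in the P2ry12 panel the double knockout footprints, 3.38 and 3.60, lie below every other footprint library.

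The question put to the double knockout is whether removing CPEB1 as well as FMRP gives a state like WT or one of its own. A related value is the interaction of the 2 losses, the change from WT beyond the sum of both single knockout changes. It cannot decide between these states. The interaction is negative where the single knockouts rise and the double knockout matches WT, and also where the double knockout alone falls. In footprints it was -1.30 ± 0.26 (log2, SE) for P2ry12. Its edgeR adjusted p of 0.108 was the lowest of the 9, so no member was called. For Csf1r and Cx3cr1 the edgeR adjusted p was 0.199 and 0.276, with 9 of 13774 genes called. In comparisons of 2 genotypes, P2ry12 was the 1 member that passed the edgeR test, and it did so in double knockout footprints. P2ry12 footprints were 5.35 and 7.65 CPM in WT, 7.10 and 6.66 with Fmr1 knocked out, 7.77 and 8.40 with Cpeb1 knocked out, and 3.38 and 3.60 for the double knockout. The 2 double knockout libraries were close to each other and below all 6 others. Against WT, P2ry12 footprints fell by 0.88 ± 0.19 on the log2 scale (SE), to 0.543 of the WT level (95% interval 0.417 to 0.706), with an adjusted p of 0.0382 by edgeR's quasi-likelihood test with Benjamini-Hochberg adjustment over all tested genes. Against the Cpeb1 knockout they fell by 1.21 ± 0.19, with an edgeR adjusted p of 0.0110. Against the Fmr1 knockout the log2 difference was -0.98 ± 0.19, which did not pass the threshold of 0.05 (edgeR adjusted p = 0.0547). That difference passed without the filter on low counts, with only the 2 genotypes in the fit and with a feature length trend removed. It passed when either WT library was left out, and the edgeR adjusted p ran from 0.00862 to 0.370 over the libraries left out.

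The P2ry12 call against WT is a narrow one. It was lost when either double knockout library, either Cpeb1 knockout library or WT replicate 2 was left out, while the log2 change stayed between -1.12 and -0.64 and the edgeR adjusted p ran from 0.00791 to 0.226. It was also lost without the replicate number as a block (edgeR adjusted p = 0.0719), with only the 2 genotypes in the fit (edgeR adjusted p = 0.102) and by DESeq2 without its own filter (adjusted p = 0.0630). The call against the Cpeb1 knockout was lost when either Cpeb1 knockout or either double knockout library was left out, with a log2 change of -1.24 to -1.17 and an edgeR adjusted p of up to 0.192. The gene spans 59216271 to 59262985 on chromosome 3, within the span of Med12l. Counts covered coding sequence, and whether the counting used strand is not given in the sources used here. Med12l footprints were 38.9 to 42.5 CPM in the double knockout and 43.4 to 47.4 in the other 6 libraries, and its log2 change against WT was -0.15 ± 0.087 (edgeR adjusted p = 0.337).

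Csf1r, the survival receptor, was the best covered of the 9 and showed the same arrangement. Its footprints were 11.3 and 17.1 CPM in WT, 13.5 and 20.3 with Fmr1 knocked out, 14.3 and 13.6 with Cpeb1 knocked out, and 7.82 and 10.7 for the double knockout. Both double knockout libraries were again below the other 6. The log2 change was -0.61 ± 0.17 against WT (edgeR adjusted p = 0.0703), -0.86 ± 0.17 against the Fmr1 knockout (edgeR adjusted p = 0.0519) and -0.61 ± 0.17 against the Cpeb1 knockout (edgeR adjusted p = 0.0502). None passed the threshold in the main fit. Other settings called Csf1r. Against the Fmr1 knockout these were DESeq2 with or without its own filter, no low-count filter, only the 2 genotypes, and a length trend removed. Against the Cpeb1 knockout they were DESeq2 with its own filter, no low-count filter, and only the 2 genotypes. Against WT the fit without the low-count filter called it (edgeR adjusted p = 0.0376). Without WT replicate 1, Csf1r was called in all 3 comparisons; it was also called without WT replicate 2 against either single knockout, and without either Cpeb1 knockout library against the Fmr1 knockout. Over the libraries left out, the edgeR adjusted p ran from 0.0267 to 0.278 against WT, from 0.00868 to 0.355 against the Fmr1 knockout and from 0.0188 to 0.529 against the Cpeb1 knockout. The change against the Cpeb1 knockout was -0.29 without Cpeb1 knockout replicate 1.

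Cx3cr1, the fractalkine receptor, was the third gene with this order. Its footprints were 3.99 and 4.38 CPM in WT, 3.93 and 4.90 with Fmr1 knocked out, 4.69 and 4.64 with Cpeb1 knocked out, and 2.45 and 3.23 for the double knockout. The 6 libraries of the other genotypes lay between 3.93 and 4.90, above both double knockout libraries. The log2 change was -0.57 ± 0.21 against WT (edgeR adjusted p = 0.142), -0.65 ± 0.21 against the Fmr1 knockout (edgeR adjusted p = 0.169) and -0.73 ± 0.20 against the Cpeb1 knockout (edgeR adjusted p = 0.0548). In the last it was called when either WT library was left out, and the edgeR adjusted p ran from 0.0295 to 0.444 over the libraries left out. Against the Cpeb1 knockout Cx3cr1 was also called without the filter on low counts, with only the 2 genotypes and with a feature length trend removed. Thus 3 of 9 members, the 3 receptors for ADP, CSF1 or IL-34, and fractalkine, had both double knockout libraries below the other 6. Among all tested genes 12.8% had that order, and 7.47% had it in RNA, where 0 of 9 members did.

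The other 6 members did not separate the double knockout cleanly. Trem2 had the largest footprint difference from WT, -1.07 ± 0.48 (edgeR adjusted p = 0.225), from 27 and 18 counts in WT against 6 and 11 for the double knockout. C1qa footprints were 3.95 and 4.93 CPM in WT, 5.26 and 6.26 with Fmr1 knocked out, 4.01 and 4.73 with Cpeb1 knocked out and 2.36 and 4.53 for the double knockout. The lower of the double knockout libraries stood below all others and the higher one within the range of WT. C1qb was at -0.45 ± 0.32 against WT (edgeR adjusted p = 0.457), Aif1 at -0.52 ± 0.25 (edgeR adjusted p = 0.262) and C1qc at -0.17 ± 0.30 (edgeR adjusted p = 0.789). Tmem119 alone was on the other side, at 0.06 ± 0.27 (edgeR adjusted p = 0.921), and its libraries of all genotypes overlapped.

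As a group, 8 of 9 members had lower footprints in the double knockout than in WT, with a median log2 change of -0.52, where the median of all tested genes was -0.001. One passed the edgeR test against WT and 4 had an unadjusted p under 0.05, beside 2.65% of all genes called and 21.0% under 0.05 unadjusted. Against the Fmr1 knockout 9 of 9 were lower, with a median of -0.72, 0 called by edgeR (0.334% of all genes) and 6 under an unadjusted p of 0.05 (15.9%). DESeq2 run without its own filter called Csf1r there. Against the Cpeb1 knockout 8 of 9 were lower, with a median of -0.59, 1 called (5.6% of all genes) and 3 under 0.05 unadjusted (24.6%). These comparisons share the double knockout libraries.

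Without double knockout replicate 1, 7 of 9 members were lower than WT with a median of -0.09, 8 of 9 were lower than the Cpeb1 knockout with a median of -0.07, and 8 of 9 were lower than the Fmr1 knockout with a median of -0.46. Without replicate 2, 9 of 9 were lower in each comparison, with medians of -0.77 against WT, -0.85 against the Cpeb1 knockout and -0.91 against the Fmr1 knockout. Neither fit called a member in the 3 comparisons.

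**Figure D3:**
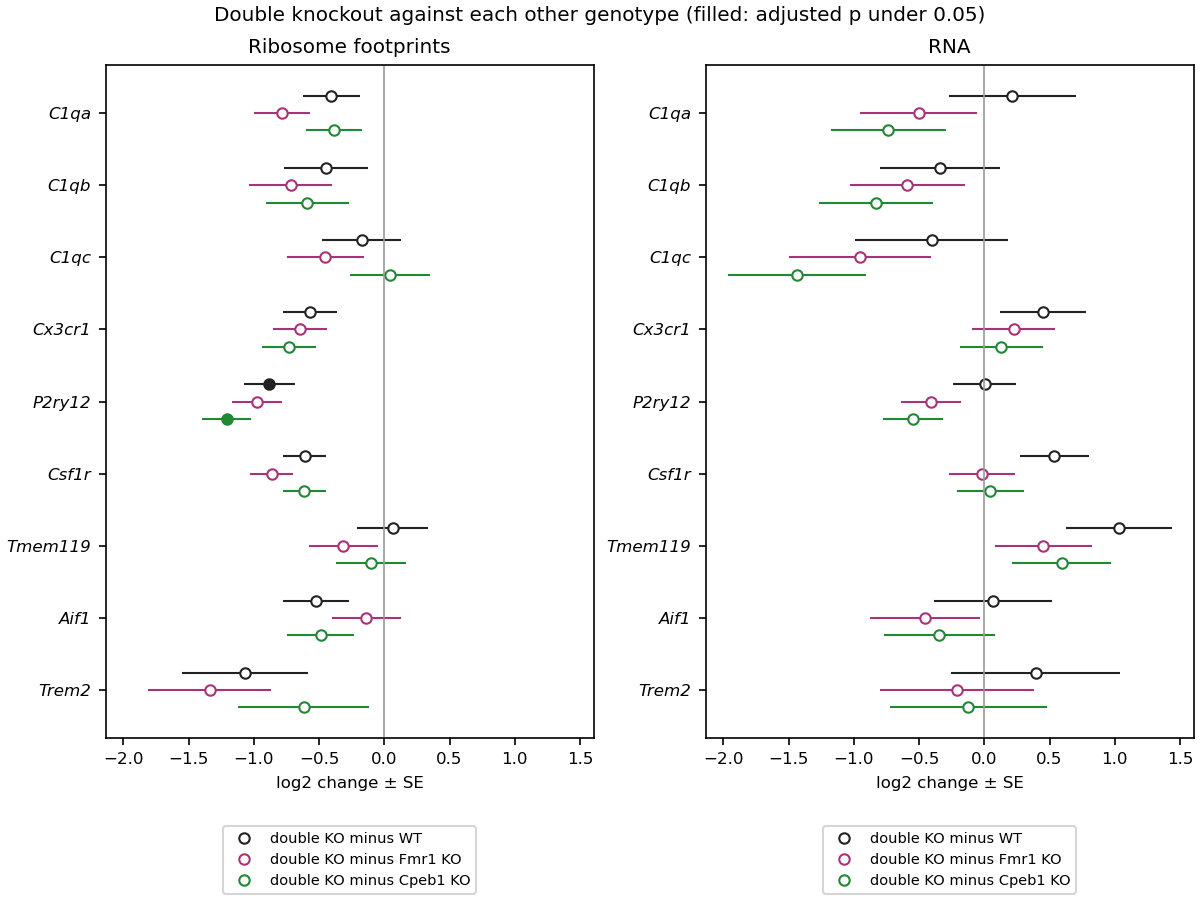
Log2 change ± SE (horizontal axes) of each microglia gene (vertical axes) in the double knockout against WT, the Fmr1 knockout and the Cpeb1 knockout, footprints left and RNA right. Filled points passed the edgeR threshold; these are P2ry12 footprints against WT and against the Cpeb1 knockout, and most footprint points lie left of 0 while RNA points lie on both sides.

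Against WT, the RNA of these 3 genes was not lower in the double knockout. In the double knockout P2ry12 RNA was 6.16 and 6.36 CPM, against 5.80 and 6.85 in WT, so the double knockout libraries lay between the WT ones. The fitted fold was 1.00 with a 95% interval of 0.722 to 1.39. Against the single knockouts P2ry12 RNA was lower: both double knockout libraries lay below all 4 single knockout libraries, which ran from 7.91 to 10.3 CPM. The log2 change was -0.55 ± 0.23 against the Cpeb1 knockout (edgeR adjusted p = 0.225) and -0.41 ± 0.23 against the Fmr1 knockout (edgeR adjusted p = 0.407). Csf1r RNA was 14.6 and 19.9 CPM for the double knockout and 10.7 and 13.2 in WT, a log2 change of 0.53 ± 0.26 (edgeR adjusted p = 0.966). Cx3cr1 RNA was 4.35 and 4.93 CPM for the double knockout and 3.10 and 3.78 in WT, a log2 change of 0.45 ± 0.33 (edgeR adjusted p = 0.966). For Csf1r and Cx3cr1 the double knockout libraries were above the WT libraries in RNA and below them in footprints.

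Over the 9, RNA in the double knockout was higher than in WT for 7 and lower for 2 (C1qb and C1qc), with a median log2 change of 0.22. The edgeR test called 0 (0.00753% of all genes), and DESeq2 called 0. The 1 member under an unadjusted p of 0.05 (4.23% of all genes) was Tmem119, at a fold of 2.04 (95% interval 1.18 to 3.54). The direction is not settled: 4 of 9 were higher without WT replicate 1, 4 of 9 without double knockout replicate 2, and 9 of 9 without double knockout replicate 1. Against the Fmr1 knockout RNA was lower for 7 of 9 (median -0.41). There 0 were called by edgeR or DESeq2 (0% of all genes by edgeR) and 0 were under 0.05 unadjusted (15.7%). Against the Cpeb1 knockout RNA was lower for 6 of 9 (median -0.34), with 0 called by edgeR or DESeq2 (0.00753% of all genes by edgeR). C1qc and P2ry12 were the 2 under 0.05 unadjusted, as 19.2% of all genes were. Without Cpeb1 knockout replicate 2, C1qb and C1qc were called, and without double knockout replicate 2, C1qc was. Without Cpeb1 knockout replicate 1, 3 of 9 were lower. Against the Fmr1 knockout 4 of 9 were lower without double knockout replicate 1.

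Translational efficiency is how footprints moved beyond the RNA. It was tested as an interaction of assay and genotype over all 16 libraries, without a term for the lysate that both assays share. In the double knockout against WT it was lower for 8 of 9 members, with a median log2 change of -0.90 where all genes had -0.01. Other lists were lower too: 19 of 22 homeostatic microglia genes had a lower translational efficiency (median -0.50), and so had 10 of 10 astrocyte genes (median -0.44), with 5 under an unadjusted p of 0.05 in each list and 0 called by edgeR. Oligodendrocyte genes had a median of -0.10 and neuronal genes one of 0.08. Csf1r was at -1.16 ± 0.34, Cx3cr1 at -1.04 ± 0.38 and P2ry12 at -0.90 ± 0.31. These were the 3 members under an unadjusted p of 0.05 (3.5% of all genes), and the edgeR test called 0 of 9, at an adjusted p of 1.00 for each of the 3, as it called 0.00768% of all genes. DESeq2 called 0 as well. Without WT replicate 1 the count of lower members was 5 of 9. In the authors' deposited table of the same comparison Csf1r stood at a log2 change of -0.86 with an adjusted p of 0.0567. The authors' deposited DESeq2 table of footprints gives P2ry12 a log2 change of -0.66 against WT and no adjusted p, and gives Csf1r -0.44 with an adjusted p of 0.0824.

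The single knockouts were compared with WT to see what loss of FMRP or of CPEB1 alone does. In RNA all 9 microglia genes were higher than WT in the Fmr1 knockout, by a median of 0.55 on the log2 scale, and all 9 were higher in the Cpeb1 knockout, by a median of 0.49; both comparisons share the WT libraries. None was called by edgeR or DESeq2. In the Fmr1 knockout 0 members had an unadjusted p under 0.05 (8.09% of all genes; edgeR called 0.00753%), and in the Cpeb1 knockout 1 did, P2ry12 (11.0%; edgeR called 0% of all genes). The median over all genes was 0.02 in both.

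The RNA of C1qa shows how far single libraries decide this. It was 2.70 and 5.95 CPM in WT, 8.62 and 4.20 with Fmr1 knocked out, 9.35 and 6.05 with Cpeb1 knocked out and 3.50 and 6.04 for the double knockout. Replicate 1 was the lowest WT library and the highest in each single knockout. Trem2 RNA was 0.899 and 1.26 CPM in WT and 2.05 and 0.775 for the Cpeb1 knockout, whose 2 libraries lay on either side of WT. With Cpeb1 knockout replicate 1 left out, 3 of 9 members were higher than WT and the median was -0.14. With WT replicate 1 left out, 7 of 9 were higher in the Fmr1 knockout, with a median of 0.23, and 8 of 9 in the Cpeb1 knockout.

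P2ry12 was steadier. Its RNA was 8.12 and 8.56 CPM with Fmr1 knocked out, 10.3 and 7.91 with Cpeb1 knocked out, against 5.80 and 6.85 in WT. All 4 single knockout libraries lay above the 4 libraries of WT and the double knockout, an order that no other member showed and that 6.04% of all genes had. The log2 change was 0.41 ± 0.23 (edgeR adjusted p = 0.642) and 0.55 ± 0.23 (edgeR adjusted p = 0.426). Csf1r RNA was 15.4 and 19.5 CPM for the Fmr1 knockout, above both WT libraries, and 20.2 and 12.2 for the Cpeb1 knockout, where the lower library lay within WT.

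**Figure D4:**
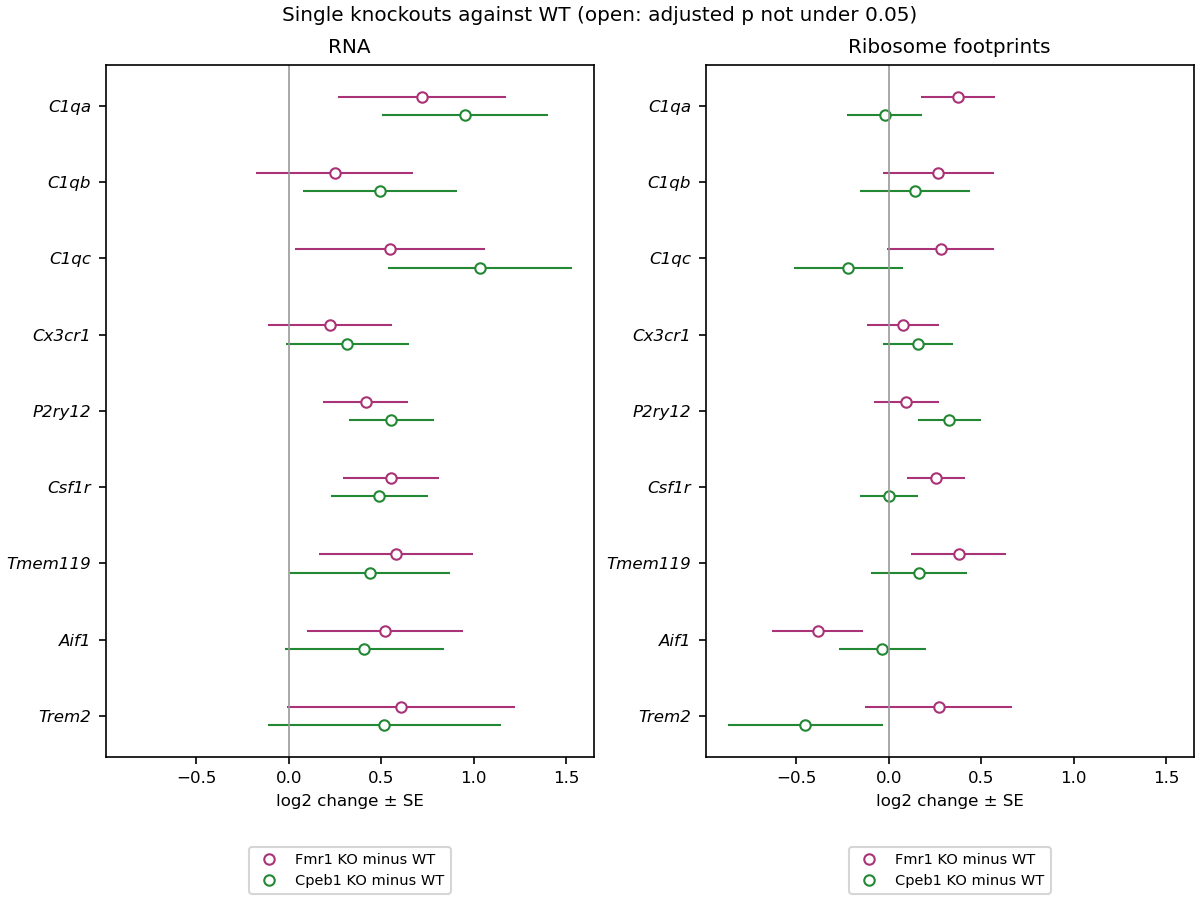
Log2 change ± SE (horizontal axes) of each microglia gene (vertical axes) in the Fmr1 knockout and the Cpeb1 knockout against WT, RNA left and footprints right. Every point is open, since none passed the edgeR threshold; RNA points are all right of 0 and footprint points lie on both sides.

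A comparison that the authors also deposited for RNA sets the 4 single knockout libraries against the 4 others. Here 8 of 9 members were higher in the single knockouts, with a median log2 change of 0.44. C1qc was at 0.99 ± 0.34 (edgeR adjusted p = 0.0872), C1qa at 0.74 ± 0.28 (edgeR adjusted p = 0.121) and P2ry12 at 0.48 ± 0.15 (edgeR adjusted p = 0.0686). These 3 had an unadjusted p under 0.05, as 25.7% of all genes had, and 0 of 9 were called by edgeR or DESeq2, beside 7.31% of all genes by edgeR. Calls over all genes in this comparison, 971, went down to 140 without Fmr1 knockout replicate 1 and 161 without Cpeb1 knockout replicate 1, and up to 1433 without double knockout replicate 2. In footprints 9 of 9 were higher in the same comparison, by a median of 0.36. There 0 were called by edgeR or DESeq2 (0% of all genes by edgeR) and 2 were under 0.05 unadjusted (6.95%). No member had all 4 single knockout footprint libraries above the other 4, as 1.92% of all genes had.

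Footprints in the single knockouts stayed closer to WT. In the Fmr1 knockout 8 of 9 members were higher, with changes from -0.38 to 0.38 and a median of 0.27. In the Cpeb1 knockout 5 of 9 were higher, with changes from -0.45 to 0.33 and a median of 0.002. In both, 0 members were called by edgeR or DESeq2 and 0 were under 0.05 unadjusted, beside 0.0581% and 0.0799% of all genes called by edgeR. Without Fmr1 knockout replicate 2, 4 of 9 were higher in that genotype, and without Cpeb1 knockout replicate 1, 2 of 9 were higher in the other. The 2 single knockouts did not differ from each other in any member by edgeR or DESeq2, with 0 under 0.05 unadjusted in either assay, where edgeR called 0.00753% of all genes in RNA and 0.0581% in footprints. Translational efficiency in the single knockouts also gave 0 calls by edgeR or DESeq2 and 0 members under 0.05 unadjusted, beside 0.0154% of all genes called after loss of Fmr1 and 0% after loss of Cpeb1, with medians of -0.28 and -0.43. Without WT replicate 1 the median in the Fmr1 knockout was 0.11, and without Cpeb1 knockout replicate 1 that in the Cpeb1 knockout was 0.03.

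Other microglia genes, from a list of 30 homeostatic markers, moved in the same direction in double knockout footprints. The list was chosen with earlier results of these data known and uses the same libraries, so it is not independent support. Of 27 tested, 23 were lower than in WT, with a median log2 change of -0.33. Of these 27, 2 were called by edgeR, beside 2.65% of all genes. For 29 listed genes, summed footprints were 481 to 559 CPM in the double knockout and 547 to 648 in the other 6 libraries. These ranges overlap. Genes of high level weigh most in such a sum, and in RNA Cst3 and Lgmn stood at 773 and 87.3 TPM. P2ry13, another ADP receptor, was 1.88 and 2.17 CPM in WT, 1.48 and 1.80 with Fmr1 knocked out, 1.69 and 1.33 with Cpeb1 knocked out and 0.509 and 0.682 for the double knockout. It fell by 1.77 ± 0.35 against WT (edgeR adjusted p = 0.0262) and by 1.35 ± 0.36 against the Cpeb1 knockout (edgeR adjusted p = 0.0465). In double knockout replicate 2 a level of 0.682 CPM is 11 counts, so these changes rest on few counts. Both double knockout libraries lay below all 6 others.

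Against the Cpeb1 knockout 23 of 27 were lower and 3 were called by edgeR, beside 5.6% of all genes. Ctss, the microglial cathepsin S, was 1 of the 3 (-0.76 ± 0.20, edgeR adjusted p = 0.0440). Against the Fmr1 knockout 24 of 27 were lower, with 0 called by edgeR (0.334% of all genes) and 14 under 0.05 unadjusted (15.9%). Without double knockout replicate 1, 22 of 27 were lower than WT, with a median of -0.37 and 0 called, and without replicate 2, 24 of 27 were lower, with a median of -0.34 and 0 called. Spi1, the gene of PU.1, had footprints of 1.68 and 1.66 CPM in WT and 1.53 and 1.80 for the double knockout, with no gap between the genotypes. In RNA 15 of 22 homeostatic genes were higher in the double knockout than in WT, with a median of 0.12. There 0 were called by edgeR and 2 were under 0.05 unadjusted, as 4.23% of all genes were. Tgfbr1, the TGF-beta receptor on which microglial identity depends, was called in the RNA comparison of the single knockouts with the other 2 genotypes. There it rose by 0.54 ± 0.14 (edgeR adjusted p = 0.0382). It was the 1 call among 22 tested homeostatic genes, where 7.31% of all genes were called.

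Genes of the activated, disease-associated state showed the same sign with smaller medians. Of 14 tested in footprints, 12 were lower in the double knockout than in WT, with a median of -0.17. B2m, the light chain of MHC class I, was 30.3 and 33.8 CPM in WT and 17.2 and 16.7 for the double knockout, and fell by 0.92 ± 0.10 (edgeR adjusted p = 0.00127). B2m was also lower in the Fmr1 knockout, at 19.1 and 19.6 CPM, a fall of 0.73 ± 0.10 (edgeR adjusted p = 0.0158), so its footprints were low in a single knockout too. Cd63, a membrane protein of late endosomes, fell by 0.50 ± 0.11 against WT (edgeR adjusted p = 0.0398). Against the Cpeb1 knockout the called genes were Cd63, the cathepsins Ctsb and Ctsl, and the lipase gene Lpl, with log2 changes from -0.46 to -0.30. Cd9 RNA rose by 0.53 ± 0.13 in the single knockouts against the other 2 genotypes (edgeR adjusted p = 0.0248), and was 33.5 and 15.3 CPM with Fmr1 knocked out, 33.0 and 19.2 with Cpeb1 knocked out, 19.6 and 15.9 in WT and 19.9 and 13.7 for the double knockout, so that one single knockout library lay below WT. Cd9 was the 1 call among 12 genes of this list tested there, where 7.31% of all genes were called. In double knockout footprints 2.65% of all genes were called against WT and 5.6% against the Cpeb1 knockout. The genes of this list are not confined to microglia.

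Of 13 tested ligands and signalling genes, 9 had lower footprints in the double knockout than in WT, with a median of -0.05, 0 called by edgeR and 0 under 0.05 unadjusted. Cx3cl1, the fractalkine gene, had footprints of 894 and 907 CPM in WT and 923 and 1022 for the double knockout, and Il34 had 19.8 and 23.2 in WT and 21.2 and 22.9 for the double knockout. The double knockout libraries lay above WT for Cx3cl1 and within WT for Il34. Apoe footprints were 474 and 492 CPM in WT and 378 and 502 for the double knockout. Csf1 RNA fell by 0.68 ± 0.19 in the single knockouts against the other 2 genotypes (edgeR adjusted p = 0.0410). It was 6.70 and 8.65 CPM in WT, 5.51 and 4.67 with Fmr1 knocked out and 3.76 and 4.50 with Cpeb1 knocked out. Csf1 was the 1 call among 12 genes of this list tested in that comparison, where 7.31% of all genes were called. In double knockout RNA these 12 genes, Csf1 among them, changed by -0.20 to 0.53 on the log2 scale against WT. In the complement list 7 of 11 tested genes had lower footprints in the double knockout than in WT. Of these 11, 0 were called by edgeR and 1 was under 0.05 unadjusted.

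Markers of other cell types were read beside these results. Footprints of 14 border macrophage and monocyte genes summed to 13.3 to 14.0 CPM in the double knockout and to 12.4 to 16.1 in the other 6 libraries, with up to 2 of the 14 at 0 and 0 called by edgeR (2 under 0.05 unadjusted against WT). Their 2 genes highest in RNA, F13a1 and Lyz2, stood at 2.86 and 2.75 TPM. Astrocyte genes summed to 1829 to 1961 CPM in the double knockout and 1938 to 2178 in the others, with 8 of 10 lower than WT and Gja1 and Slc1a3 called at -0.33 and -0.32. Oligodendrocyte genes summed to 2966 to 3286 against 3030 to 3966, with 6 of 10 lower than WT. Neuronal genes summed to 11099 to 12040 against 10472 to 11396, with 8 of 10 higher and Nefl called at 0.37 ± 0.073 (edgeR adjusted p = 0.0284). Blood genes summed to 5.64 to 7.82 against 6.51 to 36.0, the highest value being WT replicate 2, and endothelial and mural genes to 49.6 to 54.0 against 46.3 to 65.9, with 0 called by edgeR in either list (3 and 0 under 0.05 unadjusted against WT). Their genes highest in RNA were the globins Hbb-bs and Hba-a2, at 23.3 and 21.6 TPM, and Rgs5 and Vtn, at 29.4 and 12.2 TPM. The part of tissue composition in the microglia result was not tested.

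In RNA the same lists gave calls in the comparison of the single knockouts with the other 2 genotypes. These were Gja1 (0.38 ± 0.093), Sox9 (-1.22 ± 0.24), Olig1 (-0.52 ± 0.12) and Camk2a (-0.45 ± 0.088), at edgeR adjusted p from 0.0109 to 0.0264. Among all genes 7.31% were called there.

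**Figure D5:**
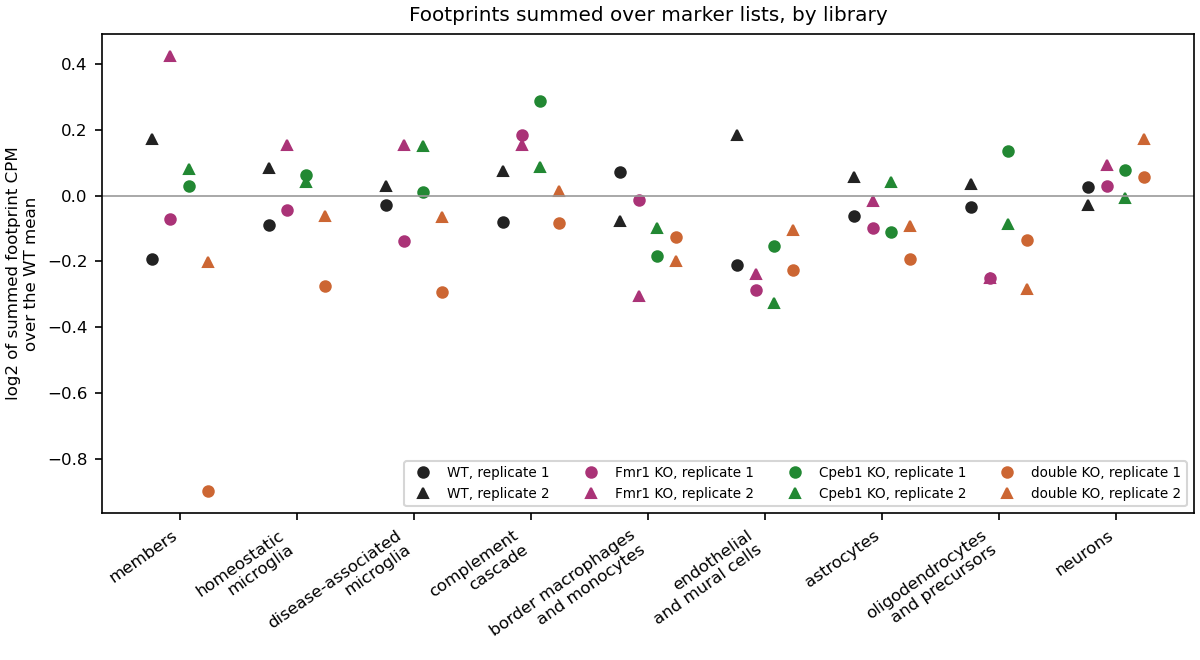
Footprint CPM summed over each marker list except blood (horizontal axis) in each library, as log2 of its ratio to the WT mean of that list (vertical axis); colours are genotypes, circles replicate 1 and triangles replicate 2, and members are the 9 microglia genes. Both double knockout points of the members are the lowest of their column, and in the neuronal list double knockout replicate 2 is the highest.

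The genes whose footprints followed the mean profile of the 9 members most closely over the 8 libraries were Cntfr, the CNTF receptor gene (r = 0.981), the calcium channel gene Cacna1d (0.970), Selplg (0.964), Cyp4v3 (0.954) and Atrnl1 (0.951), chosen among 11694 genes with at least 50 counts on average. Selplg, which encodes the selectin ligand PSGL-1, is on the homeostatic microglia list. In RNA the closest were Acn9 (0.976), Tmem222 (0.972), Tm2d3 (0.969), Tmem101 (0.968) and Sdf2 (0.968) among 10712 genes, none of them on a microglia list. The points share their libraries and sequencing depth, and 33 genes in footprints and 95 in RNA had an r over 0.9. The members themselves correlated with their own mean at 0.41 (Aif1) to 0.94 (C1qa) in footprints and at 0.37 (Tmem119) to 0.91 (Trem2) in RNA.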

How the data were processed

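Per the file headers, the authors deposited for each library a table in RSEM format with expected counts, TPM and lengths per gene over coding sequence. Per the submitters' processing notes the tools include cutadapt, Bowtie2, TopHat2, RSEM and DESeq2, with build mm10; their versions are not given in the sources used here. The authors also deposited tables with log2 changes and adjusted p-values, per the file headers, by DESeq2 or Xtail per the series' design text.

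Expected counts were rounded. The tests were edgeR 4.0.16 (R 4.3.3), with TMM scaling, filterByExpr (minimum count 10), quasi-likelihood fits of all 8 libraries of an assay with replicate number as a block, and Benjamini-Hochberg adjustment over all tested genes; calls are at 0.05, two-sided. Translational efficiency was fitted over 16 libraries and 13027 genes. DESeq2 1.42.0 was an alternative; its counts in the text are without its own filter on low means, a setting added after seeing the data. The fits were tested on simulated data. Levels are CPM with TMM factors, or deposited TPM between genes. Low counts limit precision.

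The members and all gene lists were chosen with earlier results of these data known. Genes outside the 9 are named where called, where highest in RNA TPM of an uncalled list, or by likeness of pattern. Outside this rule, Spi1, Il34, Cx3cl1, Apoe, Snap25, Med12l, Cst3 and Lgmn are named after their values were seen. Some called genes of the other lists are not reported here. Symbols are those of the files; 9 of 9 matched the RefSeq table of GRCm38.p6, and 6 of 9 its promoter sequences.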

Additional observations from a re-analysis of the deposited data

How the results depend on the processing

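The numbers of members called were set against fits without the replicate block, with RLE size factors, with DESeq2, without the filter on low counts, with only the 2 genotypes compared, with a feature length trend removed (with the replicate block), and without each library in turn. For double knockout footprints against WT, 1 member was called, and 0 with no replicate block, 0 with only the 2 genotypes, 0 by DESeq2 without its own filter (an alternative chosen after seeing the data), 2 without the filter, and 0 to 2 when a library was left out. Against the Fmr1 knockout 0 were called, and 2 without the filter, 3 with only the 2 genotypes, 2 with the length trend removed, 1 by DESeq2 without its own filter, and 0 to 2 when a library was left out. Against the Cpeb1 knockout 1 was called, and 3 without the filter, 3 with only the 2 genotypes, 2 with the length trend removed, and 0 to 3 when a library was left out. In RNA, the 4 single knockout libraries against the 4 others gave 0 calls, and 2 without the filter; the double knockout against the Cpeb1 knockout gave 0, and 0 to 2 when a library was left out. The causes were not tested. With its own filter, DESeq2 gave 8 of 9 members no adjusted p in the footprint comparisons of the double knockout. Against WT the 1 member with an adjusted p was not called. Against the Fmr1 and the Cpeb1 knockout that member was Csf1r, and it was called (DESeq2 adjusted p = 0.00776 and 0.0471). P2ry12 had no adjusted p in these 2 comparisons. Replicate differences correlated between genotypes at -0.045 to 0.29 in RNA and at -0.075 to 0.33 in footprints, so the numbers are not shown to pair the libraries; the replicate block changed no other count of members called. Over all genes, footprint calls in the double knockout against WT numbered 365, 73 with no replicate block, 85 with only the 2 genotypes, and 31 (without double knockout replicate 2) to 1318 (without WT replicate 1) when a library was left out. In RNA of the single knockouts against the other 2 genotypes, calls over all genes numbered 971, 380 with no replicate block, 274 as a contrast in a fit of 4 genotypes, and 140 to 1433 when a library was left out.

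Single members turned sign in these cases. With the length trend removed, Cx3cr1 RNA in the single knockouts against the other 2 genotypes went from 0.03 to -0.0085. P2ry12 RNA in the double knockout against WT, at 0.004, was -0.0045 by DESeq2 with or without its own filter, -0.0017 with only the 2 genotypes and -0.0013 with the length trend removed. Leaving out a library gave ranges that cross 0. In RNA of the Fmr1 knockout against WT these were -0.11 to 1.42 for C1qa and -0.086 to 1.02 for Aif1. In RNA of the Cpeb1 knockout against WT they were -0.46 to 1.17 for C1qb, -0.077 to 1.77 for C1qc, -0.28 to 0.72 for Cx3cr1, -0.14 to 0.95 for Csf1r, -0.37 to 0.89 for Aif1 and -0.86 to 1.33 for Trem2. In RNA of the single knockouts against the other 2 genotypes they were -0.14 to 0.16 for Cx3cr1 and -0.30 to 0.25 for Tmem119, and in RNA of the double knockout against WT -0.18 to 0.15 for P2ry12. In double knockout footprints they were -0.60 to 0.22 for C1qc and -0.034 to 0.16 for Tmem119 against WT, -0.61 to 0.33 for Aif1 against the Fmr1 knockout, and -0.34 to 0.33 for C1qc and -0.42 to 0.20 for Tmem119 against the Cpeb1 knockout. P2ry12, Csf1r and Cx3cr1 footprints kept their direction in every fit of the double knockout comparisons that was run. On the CPM scale the WT footprint to RNA ratios shift upward together, the median of all genes from -0.63 to -0.22.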
